A study of Mus musculus with 6 samples.

Results

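The genes described here are 49 components of Wnt signalling in C5a-stimulated mouse osteoblasts, comprising 12 Wnt ligands, 3 genes of the R-spondin arm, 7 Frizzled receptors, 6 co-receptors and other receptors, 9 antagonists, 3 genes of the beta-catenin destruction complex, 4 nuclear factors and 5 feedback inhibitors. They were chosen by name, and each was represented by the probeset, a group of short probes for 1 transcript, that names this gene alone and has the highest mean over the arrays. In this way 48 of the 49 members were measured, out of 19938 genes that a probeset names alone. Tcf7 was not analysed here. Primary osteoblasts of 3 male wild-type C57BL6/J mice aged 8 to 12 weeks, numbered 2, 4 and 5, were expanded to passage 2 to 3 and differentiated under osteogenic conditions for 14 days. From each mouse 1 culture then received 100 ng/ml recombinant murine C5a for 4 h and 1 culture was left unstimulated for the same time, both in proliferation medium, which gave 3 C5a arrays and 3 unstimulated arrays. C5a is the small peptide released from complement component C5. Its receptors are C5aR1 and C5aR2, and the authors state that the effects of both were not fully separated. Neither group carried a deletion or another agent.

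Wnt proteins are secreted lipid-modified ligands that bind Frizzled receptors together with Lrp5 or Lrp6. Binding halts the destruction complex of Axin, Apc and kinases, so that beta-catenin accumulates and joins TCF/LEF factors at target genes, while other Wnts act through Ror and Ryk receptors without beta-catenin. In bone, active Wnt signalling in osteoblasts favours bone formation and limits osteoclast formation, and secreted antagonists of the Dickkopf and Sfrp families restrain it.

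At 4 h of C5a, the R-spondins Rspo2 and Rspo3, the receptors Fzd2 and Ror1 and the nuclear factor Tcf7l2 stood lower and the ligand Wnt11 stood higher by at least 1.5-fold at an unadjusted p under 0.05. Rspo2, a secreted amplifier of Wnt signalling, was 3.03-fold lower with C5a, and Fzd2, Ror1 and Tcf7l2 were 1.51-fold to 1.70-fold lower. Wnt11 was 1.85-fold higher. The values are log2 intensities normalized by the robust multiarray average, and differences are C5a minus unstimulated on the log2 scale within a mouse, so that 1 unit is a doubling. No member passed an adjusted p under 0.05 in limma with the mouse as a block, which called 0.0112% of all 35556 probesets. At an unadjusted p under 0.05, 5 of the 48 members were higher and 11 were lower, which is 10.4% and 22.9% of the members. The same rule called 8.26% of the 19938 genes higher and 11.9% lower. Without the block for the mouse, 8 of these 16 members no longer passed the unadjusted threshold. Among the 46 members whose mean lay at or above the 40th percentile of all probesets, the same 5 and 11 members were called, against 11.6% of such genes higher and 16.7% lower. With a fold of at least 1.5 in addition, 1 member was higher and 5 were lower, where this rule called 2.22% of genes higher and 2.21% lower.

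Before the results, the arrays themselves are described. Their medians lay between 5.89 and 5.93. Of 11 osteoblast and osteocyte entries 7 had a measured probeset. Among them, Col1a1 read 13.3 to 13.8 and Alpl 9.29 to 11.4 over the arrays, Sp7 read 6.16 to 8.73, Dmp1 6.01 to 9.20 and Phex 5.32 to 8.91, and the osteocyte gene Mepe stayed at 4.49 to 4.71. Of the 7, Ibsp and Phex were lower with C5a at the unadjusted threshold, with log2 differences of -0.43 and -0.42. That threshold called 11.9% of all genes lower. Alpl, Mepe and Col1a1 had -0.19, -0.02 and -0.01, Sp7 and Dmp1 had 0.08 and 0.16, and the median of the 7 was -0.02. Mouse 5 stood apart in some of these genes, with Ibsp, a bone matrix gene, at 7.02 with C5a and 7.56 unstimulated, against 11.3 to 12.9 in mice 2 and 4. Phex was also lowest there, with means over both cultures of 8.73, 6.70 and 5.38 in mice 2, 4 and 5. In Sp7 and Dmp1 mouse 4 stood highest instead, with 6.38, 8.49 and 6.53 and with 6.78, 9.04 and 6.08. Col1a1 was nearly level, at 13.5, 13.8 and 13.4. Cd68, a macrophage marker, was at 6.78 with C5a and 6.51 unstimulated in mouse 5, and at 10.8 to 11.6 in mice 2 and 4. Over 11 macrophage and osteoclast genes the mean log2 value was 10.03, 10.24 and 6.95 with C5a in mice 2, 4 and 5, and 10.35, 10.65 and 6.85 unstimulated. The osteoclast genes Ctsk and Acp5 differed less between mice, with means over both cultures of 10.7, 10.9 and 10.4 and of 9.13, 8.48 and 8.10. Of the 11 genes, 4 were lower at an unadjusted p under 0.05, a rule that called 11.9% of all genes lower. Over 6 smooth muscle and pericyte genes the mean log2 value was 9.71, 9.73 and 9.87 with C5a and 8.78, 9.25 and 9.77 unstimulated. Higher at the unadjusted p were 3 of the 6, Cspg4, Tagln and Cnn1, with log2 differences of 1.70, 0.70 and 0.63. That rule called 8.26% of all genes higher. Acta2, Rgs5 and Myh11 had 0.11, 0.03 and -0.16. The mean of 6 endothelial genes lay between 5.32 and 5.40 on every array, and 1 of 6 adipocyte genes was lower. The part of these cells in the members' differences was not tested. Since each array holds RNA of a whole culture, fewer cells of a type and less RNA per cell cannot be told apart. Without mouse 5, 4 members were higher and 9 lower at the unadjusted p, where this rule called 5.48% and 9.2% of genes. Past both thresholds, Wnt11 was then higher and Rspo2, Fzd2, Fzd5, Ror1 and Frzb were lower, with 2.17% of genes higher and 2.81% lower.

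Promoter windows of Wnt11, Ror1 and Tcf7l2 are shown because these genes are among the 6 members past both thresholds, those of Rspo2, Rspo3 and Fzd2 not being used here. Each window covers 250 bases before to 50 bases after a transcription start in RefSeq on GRCm38.p6. Windows were held for 9 of the 16 members with an unadjusted p under 0.05. The motifs searched on both strands were the TCF/LEF core CTTTGA, through which beta-catenin reaches its targets, the AP-1 site TGANTCA, the CRE half-site TGACG and the EGR site GCGNGGGCG. Of all 32851 windows of this length, 16% hold the TCF/LEF core, 7.81% the AP-1 site, 20.8% the CRE half-site and 5.55% the EGR site. Capitals mark matches, no matches overlapped in these windows, and all 5 windows lie on the forward strand, Wnt11 at chr7:98834862-98835161 and chr7:98838595-98838894, Ror1 at chr4:100095541-100095840 and Tcf7l2 at chr19:55741560-55741859 and chr19:55895071-55895370.
Wnt11 first start: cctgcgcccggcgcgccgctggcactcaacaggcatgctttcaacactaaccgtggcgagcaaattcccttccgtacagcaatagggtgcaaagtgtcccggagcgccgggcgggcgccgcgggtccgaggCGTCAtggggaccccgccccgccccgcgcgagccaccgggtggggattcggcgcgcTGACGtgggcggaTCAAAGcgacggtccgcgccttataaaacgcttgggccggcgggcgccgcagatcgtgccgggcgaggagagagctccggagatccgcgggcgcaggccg
Wnt11 second start: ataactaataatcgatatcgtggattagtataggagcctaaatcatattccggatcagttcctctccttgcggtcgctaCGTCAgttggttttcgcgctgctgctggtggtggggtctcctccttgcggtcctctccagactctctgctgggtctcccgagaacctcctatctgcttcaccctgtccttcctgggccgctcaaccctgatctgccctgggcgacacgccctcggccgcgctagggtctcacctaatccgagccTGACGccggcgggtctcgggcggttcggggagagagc
Ror1: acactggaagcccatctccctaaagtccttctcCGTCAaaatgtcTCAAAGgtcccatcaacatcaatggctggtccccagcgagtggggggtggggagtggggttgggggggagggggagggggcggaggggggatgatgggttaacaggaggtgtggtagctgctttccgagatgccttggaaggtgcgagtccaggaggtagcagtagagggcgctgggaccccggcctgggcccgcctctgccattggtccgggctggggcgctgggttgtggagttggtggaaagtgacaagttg
Tcf7l2 first start: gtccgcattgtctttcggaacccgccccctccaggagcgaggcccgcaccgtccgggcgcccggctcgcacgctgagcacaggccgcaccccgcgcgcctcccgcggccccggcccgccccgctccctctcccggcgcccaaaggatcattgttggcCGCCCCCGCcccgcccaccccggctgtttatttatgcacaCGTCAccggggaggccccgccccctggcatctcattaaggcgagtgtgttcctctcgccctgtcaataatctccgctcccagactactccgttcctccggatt
Tcf7l2 second start: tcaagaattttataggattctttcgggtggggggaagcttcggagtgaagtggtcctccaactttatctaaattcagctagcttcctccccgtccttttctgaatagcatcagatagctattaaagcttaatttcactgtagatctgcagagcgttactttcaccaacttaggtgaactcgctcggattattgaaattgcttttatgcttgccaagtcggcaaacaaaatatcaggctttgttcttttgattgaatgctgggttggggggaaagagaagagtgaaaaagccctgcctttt

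A TCF/LEF core, read on the reverse strand, began 50 bases before the first start of Wnt11 and 205 bases before that of Ror1. It was absent from the second Wnt11 window and from both Tcf7l2 windows. A CRE half-site occurred 2 times in each Wnt11 window, 1 time in Ror1 and 1 time in the first Tcf7l2 window, where an EGR site also lay 93 bases before the start. The second Tcf7l2 window held none of the 4 motifs, and the AP-1 letters were in none of the 5 windows. A match describes the letters of these windows and no binding was measured.

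Among the ligands, Wnt11, which acts mainly without beta-catenin in cell polarity and movement, was the clearest. Its probeset read 7.25, 6.32 and 6.70 with C5a in mice 2, 4 and 5, against 5.78, 5.79 and 6.04 unstimulated. The unstimulated values of mice 2 and 4 were low, below the medians of their arrays, which were both 5.89. All C5a arrays were above all unstimulated arrays, and the step was widest in mouse 2. The means were 6.76 ± 0.46 with C5a and 5.87 ± 0.15 unstimulated (SD, n = 3 each). This gave a log2 difference of 0.89 (SE 0.20, adjusted p = 0.145), which was 0.60 without mouse 2.

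Wnt2, a ligand of the beta-catenin branch, read 5.79, 6.42 and 6.02 with C5a against 5.72, 5.66 and 5.69 unstimulated. The groups did not overlap, although mouse 2 differed by 0.07 only. Wnt2 read low, with a mean of 5.88, below the median of every array. The log2 difference of 0.39 (SE 0.14, adjusted p = 0.299) missed the unadjusted threshold without mouse 4, at 0.20, and without mouse 5, at 0.41. Wnt16, which in mice is made by osteoblasts and holds back osteoclasts, read 6.42, 6.46 and 6.91 with C5a against 6.49, 6.80 and 7.45 unstimulated. It was lower in all 3 mice, with overlapping groups and a log2 difference of -0.32 (SE 0.11, adjusted p = 0.268). It no longer passed the unadjusted threshold without mouse 4, at -0.30, or without mouse 5, at -0.20.

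The other 9 ligands had log2 differences between -0.32 and 0.27 and unadjusted p between 0.0597 and 0.973. Wnt5a, the prototype of Wnts that act through Ror receptors, had the lowest of these at -0.32, with a 95% interval from -0.72 to 0.08, and Wnt2b the highest at 0.27, from -0.02 to 0.56. For Wnt10b, a ligand that promotes bone formation in mice, the interval ran from -0.24 to 0.24, and for Wnt3a from -0.14 to 0.38. Wnt3a read low, with a mean of 5.42, below the median of every array. Wnt4 was the only member with a second probeset naming it, and there the log2 difference was 0.23 (unadjusted p in limma 0.0438, adjusted p = 0.289), higher in all 3 mice and past the unadjusted threshold, against -0.02 on the probeset used. The 12 ligands had a median log2 difference of -0.01.

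**Figure D1:**
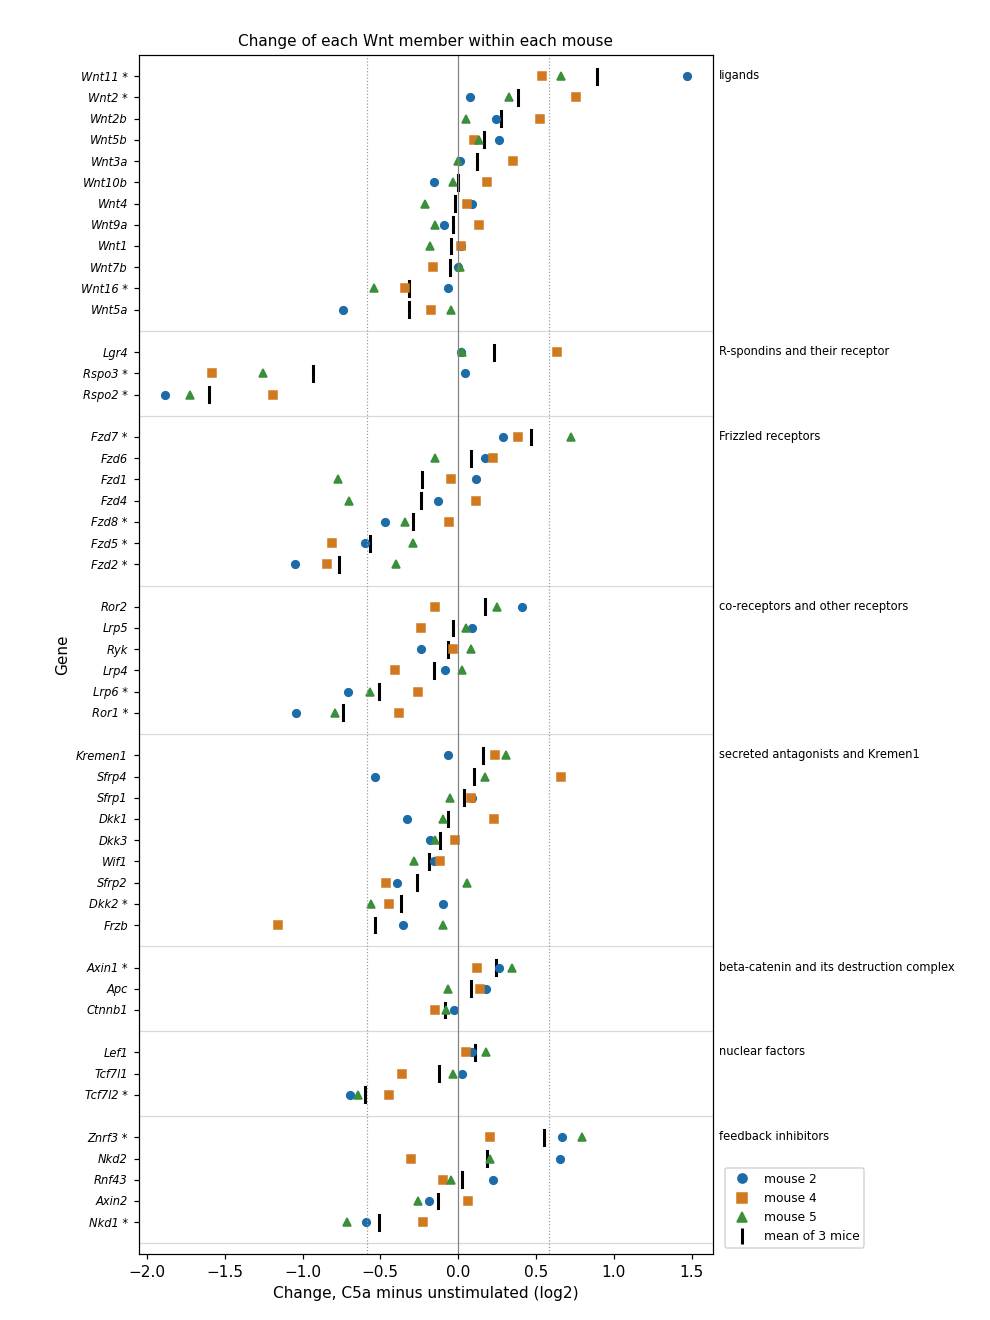
Change of each of the 48 measured members, C5a minus unstimulated in log2 units, within mouse 2 (circles), mouse 4 (squares) and mouse 5 (triangles), grouped by role, with the mean of the 3 mice as a black bar, dotted lines at a 1.5-fold change and an asterisk for an unadjusted p under 0.05. Rspo2 lies at -1.19 or lower in every mouse and Wnt11 at 0.54 or higher, while most ligands and antagonists lie around 0.

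The R-spondins held the widest differences. R-spondins are secreted proteins that bind Lgr receptors and keep the ligases Rnf43 and Znrf3 away from Frizzled receptors. Rspo2 read 9.02, 9.79 and 8.61 with C5a, against 10.90, 10.98 and 10.33 unstimulated. The highest C5a array lay below the lowest unstimulated array. The means were 9.14 ± 0.60 with C5a and 10.74 ± 0.36 unstimulated (SD, n = 3 each). The log2 difference was -1.60 (SE 0.15, 95% interval -1.99 to -1.20, adjusted p = 0.0811), the smallest p of any member. Its adjusted p was 0.0292 when only probesets at or above the 40th percentile were tested and 0.0205 when only those naming 1 gene were tested, and 0.182 without the block for the mouse, within a range of 0.0205 to 0.521 over 13 alternatives.

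Rspo3 read 6.72, 7.80 and 9.07 with C5a against 6.68, 9.38 and 10.32 unstimulated. Mice 4 and 5 were lower by 1.58 and 1.26, and mouse 2, where the gene was lowest in both cultures, differed by 0.04 in the opposite direction. The log2 difference of -0.93 (SE 0.33, adjusted p = 0.271) became -1.42 without mouse 2. It missed the unadjusted threshold without mouse 4, at -0.61, and without mouse 5, at -0.77. Lgr4, the R-spondin receptor among the members, had a log2 difference of 0.23 with an interval from -0.16 to 0.61.

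**Figure D2:**
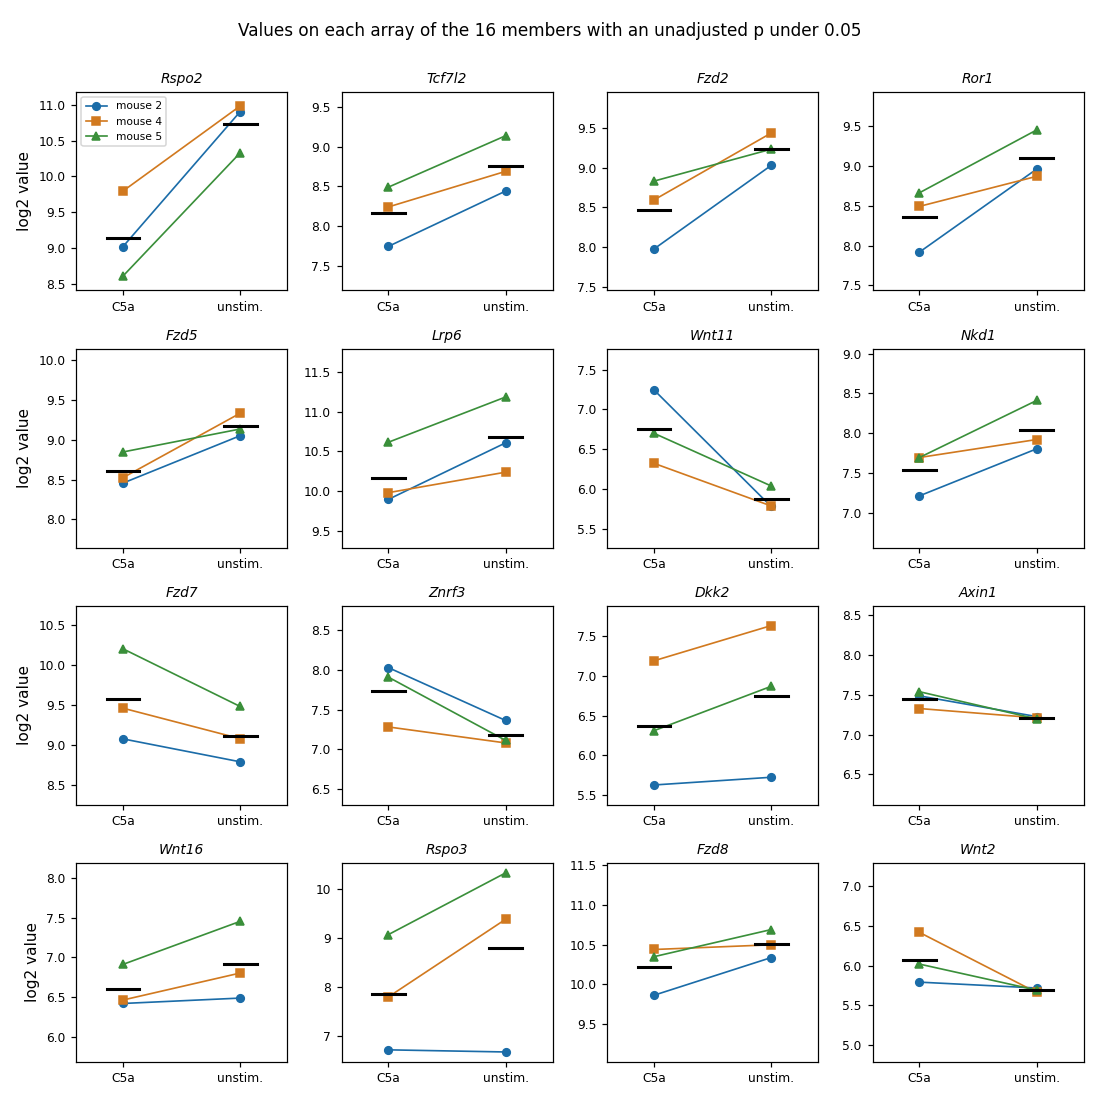
Normalized log2 value on each array for the 16 members with an unadjusted p under 0.05, ordered by p, with C5a on the left and unstimulated on the right of each panel, a line joining the 2 cultures of a mouse and black bars at the group means. Each vertical axis is centred on the gene's own values, and the lines of Rspo2 fall toward C5a in all 3 mice, while those of Rspo3 do so in mice 4 and 5 only.

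Of the 7 Frizzled receptors, which carry the Wnt binding domain, 3 were lower and 1 was higher at the unadjusted threshold. That threshold called 11.9% of all genes lower and 8.26% higher. Fzd2 read 7.98, 8.59 and 8.83 with C5a against 9.03, 9.43 and 9.23 unstimulated. No C5a array reached an unstimulated one, and the difference was widest in mouse 2 and narrowest in mouse 5. Its log2 difference was -0.76 (SE 0.14, adjusted p = 0.118).

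Fzd5 was also separated, at 8.46, 8.53 and 8.85 with C5a and 9.05, 9.34 and 9.14 unstimulated, with a log2 difference of -0.57 (SE 0.12, adjusted p = 0.134), just short of the 1.5-fold threshold at 1.48-fold. Fzd8 read 9.86, 10.44 and 10.35 with C5a and 10.34, 10.50 and 10.69 unstimulated. Its log2 difference of -0.29 (SE 0.10, adjusted p = 0.273) came mainly from mice 2 and 5, with overlapping groups, and missed the unadjusted threshold at -0.20 without mouse 2 and at -0.27 without mouse 5.

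Fzd7 was the Frizzled that went the other way. It read 9.07, 9.46 and 10.21 with C5a against 8.79, 9.08 and 9.48 unstimulated, higher in every mouse, while the groups overlapped because mouse 5 was high in both cultures. On average it was higher by 0.47 on the log2 scale (SE 0.11, adjusted p = 0.151), with an unadjusted p in limma of 0.198 without the block for the mouse. Fzd1, Fzd4 and Fzd6 had log2 differences from -0.24 to 0.08. For Fzd1 and Fzd4 the widest step was that of mouse 5, lower by 0.77 and 0.70.

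Lrp6, the co-receptor that recruits Axin once a Wnt is bound, read 9.90, 9.98 and 10.62 with C5a against 10.61, 10.24 and 11.18 unstimulated. Each mouse was lower, by 0.71, 0.26 and 0.57, with overlapping groups. Over the mice this gave -0.51 (SE 0.11, adjusted p = 0.137), with an unadjusted p in limma of 0.134 without the block for the mouse. Its relative Lrp5 had a log2 difference of -0.04 with an interval from -0.28 to 0.21. The difference between both co-receptors was not tested.

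Ror1, a receptor tyrosine kinase-like protein that binds Wnt5a, read 7.92, 8.49 and 8.67 with C5a and 8.96, 8.87 and 9.46 unstimulated. The groups did not overlap, and mouse 2 had the widest step. Its log2 difference was -0.74 (SE 0.14, adjusted p = 0.124). Its paralog Ror2 had 0.17 (interval -0.16 to 0.50), Ryk -0.06 and Lrp4, which presents sclerostin in bone, -0.16, none past the unadjusted threshold.

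Among the secreted antagonists and Kremen1, 1 of 9 passed the unadjusted threshold, which called 8.26% of all genes higher and 11.9% lower. Dkk2, which binds Lrp5 and Lrp6, read 5.63, 7.19 and 6.31 with C5a against 5.72, 7.63 and 6.87 unstimulated. It was lower by 0.10, 0.44 and 0.56, and the groups overlapped widely. The log2 difference of -0.37 (SE 0.11, adjusted p = 0.218) missed the unadjusted threshold without mouse 4, at -0.33, and without mouse 5, at -0.27. Wif1, which binds Wnts directly, was lower on all 3 C5a arrays than on any unstimulated array, yet by 0.19 on average (adjusted p = 0.323).

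The remaining antagonists had log2 differences from -0.54 for Frzb to 0.16 for Kremen1, the receptor that works with Dickkopf proteins. Frzb, a decoy with a Frizzled-like domain, owed most of its value to mouse 4, at 8.66 with C5a and 9.82 unstimulated. For Dkk1, an inhibitor of bone formation, the interval ran from -0.39 to 0.26, and for Sfrp1, a decoy that limits bone mass in mice, from -0.15 to 0.23. Dkk1 and Wif1 read low, with means of 5.53 and 5.81, below the median of every array. The median over the 9 genes was -0.12.

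Inside the cell, Axin1, the scaffold of the destruction complex, read 7.49, 7.33 and 7.54 with C5a against 7.23, 7.21 and 7.20 unstimulated. The groups did not overlap, and the unstimulated arrays lay within a narrow band. The log2 difference was 0.24 (SE 0.08, adjusted p = 0.244), a 1.18-fold difference, and it missed the unadjusted threshold without mouse 2, at 0.23, and without mouse 5, at 0.19. Beta-catenin itself, Ctnnb1, had -0.09 with an interval from -0.27 to 0.10, and Apc, another scaffold, had 0.08, from -0.13 to 0.30. These are transcript levels, and beta-catenin protein was not measured.

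Tcf7l2, 1 of the DNA-binding partners of beta-catenin, read 7.74, 8.24 and 8.49 with C5a against 8.44, 8.69 and 9.14 unstimulated. The groups overlapped through mouse 5, but the steps within mice were even, at -0.70, -0.45 and -0.65. On average Tcf7l2 was lower with C5a, with a log2 difference of -0.60 (SE 0.08, adjusted p = 0.0984). Without the block for the mouse its unadjusted p in limma was 0.0542. Lef1 and Tcf7l1 had 0.11 and -0.12, with intervals from -0.08 to 0.29 and from -0.39 to 0.14. Lef1 read low, with a mean of 5.43, below the median of every array.

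Feedback inhibitors are made in response to Wnt signalling and dampen it. Nkd1, which binds Dishevelled, read 7.21, 7.69 and 7.69 with C5a against 7.80, 7.92 and 8.41 unstimulated. The groups did not overlap. Nkd1 had a log2 difference of -0.51 (SE 0.12, adjusted p = 0.147). Znrf3, the membrane ligase that removes Frizzled receptors, read 8.03, 7.28 and 7.91 with C5a against 7.36, 7.08 and 7.11 unstimulated. It was higher in all mice and mouse 4 had the smallest step, with a log2 difference of 0.55 (SE 0.13, adjusted p = 0.159) that narrowly missed the unadjusted threshold without mouse 2, at 0.50. Axin2, a widely used readout of beta-catenin activity, read 5.79, 6.11 and 5.88 with C5a and 5.98, 6.05 and 6.14 unstimulated, and its log2 difference was -0.13 with an interval from -0.37 to 0.11. Nkd2 and Rnf43 had 0.18 and 0.03.

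Over all 48 members, 9 were higher in all 3 mice, against 19.0% of genes, and 15 were lower in all 3, against 22.9% of genes. All C5a arrays lay above all unstimulated arrays for 3 members, against 8.67% of genes, and below them for 6 members, against 9.95% of genes. The median log2 difference of the members was -0.06, beside -0.01 over all genes, and within mice 2, 4 and 5 it was -0.05, -0.04 and -0.06. The median size of a member's difference, regardless of direction, was 0.19, 0.23 and 0.19 in the 3 mice, beside 0.15, 0.11 and 0.13 over all genes. The values over all genes include those below the 40th percentile, where 2 of the 48 members lay.

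The differences between mice were also wide. The range of the 3 mouse means, each over both cultures, exceeded the log2 difference in size for 38 of 48 members and for 71.4% of all genes, and its median was 0.49, beside 0.17 over all genes. These sets differ in level, since 46 of the 48 members but 13903 of the 19938 genes lay at or above the 40th percentile. A median over such genes alone was not taken. The range was above 1 for 7 members, which are named here because of this value. Sfrp1 read 8.28, 11.69 and 13.07 with C5a and 8.20, 11.61 and 13.12 unstimulated, so that both cultures of a mouse lay close together while the mice spanned 4.86. Sfrp4, another decoy of this family, spanned 3.22 with mouse 4 lowest, at 10.08, 7.46 and 9.04 with C5a and 10.62, 6.80 and 8.87 unstimulated. Rspo3 spanned 2.99, Frzb 2.28, Fzd6 2.06, Dkk2 1.73 and Fzd4 1.46. Sfrp1, Rspo3, Fzd6 and Fzd4 were lowest in mouse 2 and highest in mouse 5. Sfrp4 was highest in mouse 2, and Frzb and Dkk2 were highest in mouse 4.

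**Figure D3:**
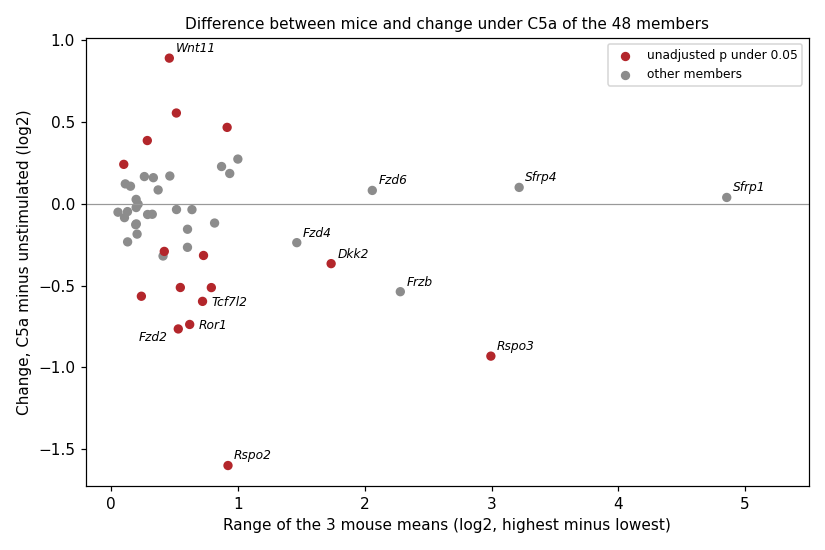
For each of the 48 members, the range of the 3 mouse means in log2 units (horizontal) and the log2 difference of C5a minus unstimulated (vertical), in red where the unadjusted p was under 0.05. Sfrp1 and Sfrp4 lie far to the right near 0 on the vertical axis, Rspo3 is far from 0 on both, and Rspo2 and Wnt11 differ mainly between the groups.

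Beyond the members, 147 further genes of the pathway were measured in 7 lists. None passed an adjusted p under 0.05, while 26 were higher and 24 lower at the unadjusted threshold, 10 and 7 of them by at least 1.5-fold. Over all genes these rules called the 8.26% higher and 11.9% lower, and 2.22% and 2.21% with the fold, that were given for the members, and the counts within the lists are read against the same shares. None of 12 further ligands and export genes passed it, and of 12 further inhibitors Draxin did, being lower. Of 9 further receptors, Lgr6 was higher and Reck and Lgr5 were lower. Lgr5, which like Lgr4 binds R-spondins, read 7.14, 7.96 and 7.11 with C5a against 9.03, 9.21 and 7.81 unstimulated. It was lower in every mouse, and the groups overlapped through the low mouse 5. The log2 difference was -1.28 (SE 0.23, adjusted p = 0.117). Lgr6, a further R-spondin receptor, read 6.21, 6.54 and 5.88 with C5a and 5.84, 5.80 and 5.83 unstimulated, with no overlap and a log2 difference of 0.39 (SE 0.14, adjusted p = 0.294). All 3 unstimulated values of Lgr6 lay below the medians of their arrays, and mouse 5 was higher by 0.05 only. At the unadjusted threshold Rspo2, Rspo3 and Lgr5 were thus lower and Lgr6, at this low level, higher, while the interval of Lgr4 included 0. The further R-spondins Rspo1 and Rspo4 had -0.19 and -0.07, lower in all 3 mice, with intervals that included 0. Rspo4 read low, with a mean of 5.42.

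Among 28 cytoplasmic genes 6 were higher and 3 lower, Dact1, which binds Dishevelled, being past the fold with -0.62 (SE 0.19, adjusted p = 0.226). Of 22 nuclear partners 4 were higher and 6 lower. Sox9, which holds back beta-catenin in cartilage and is also a chondrocyte marker, had -0.71 (SE 0.10, adjusted p = 0.0986). Of 6 chondrocyte genes, Sox9 was the 1 lower and Col10a1, with 0.29, the 1 higher at the unadjusted threshold. That threshold called 11.9% of all genes lower and 8.26% higher, and the median log2 difference of the 6 was -0.01. Tbl1xr1, a subunit of corepressor complexes, had -0.68 (SE 0.10, adjusted p = 0.0984).

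Of 28 genes of the planar polarity and calcium branch, 7 were higher and 3 lower. Nfatc2, a transcription factor switched on by calcium, read 9.13, 7.87 and 8.39 with C5a against 6.42, 6.79 and 5.92 unstimulated. The groups were far apart, with the smallest step in mouse 4, and the log2 difference was 2.08 (SE 0.33, adjusted p = 0.109). Its relative Nfatc1 had 1.28 (SE 0.27, adjusted p = 0.134) and Prkca, a calcium-dependent kinase, 0.81 (SE 0.10, adjusted p = 0.0919). Vangl1 and Vangl2, core polarity proteins, had -0.24 and -0.25, and Daam2 had -0.48.

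The 37 measured genes reported as beta-catenin targets in various tissues did not share a direction, with 8 higher and 9 lower at the unadjusted threshold, 7 and 3 of them by at least 1.5-fold, and a median log2 difference of 0.03. Jun, an AP-1 subunit, read 10.54, 9.77 and 9.83 with C5a against 11.91, 11.58 and 11.29 unstimulated, fully separated, with a log2 difference of -1.55 (SE 0.11, adjusted p = 0.0704). Bmp4, a bone-inducing growth factor, had -1.57 (SE 0.15, adjusted p = 0.0796). Higher were Fosl1, another AP-1 subunit, with 1.20 (SE 0.19, adjusted p = 0.106), the urokinase receptor Plaur with 1.18 (SE 0.25, adjusted p = 0.137), Fgf18 with 1.12 (SE 0.15, adjusted p = 0.0928) and the hyaluronan receptor Cd44 with 1.08 (SE 0.20, adjusted p = 0.12). Many of these genes also respond to other pathways.

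**Figure D4:**
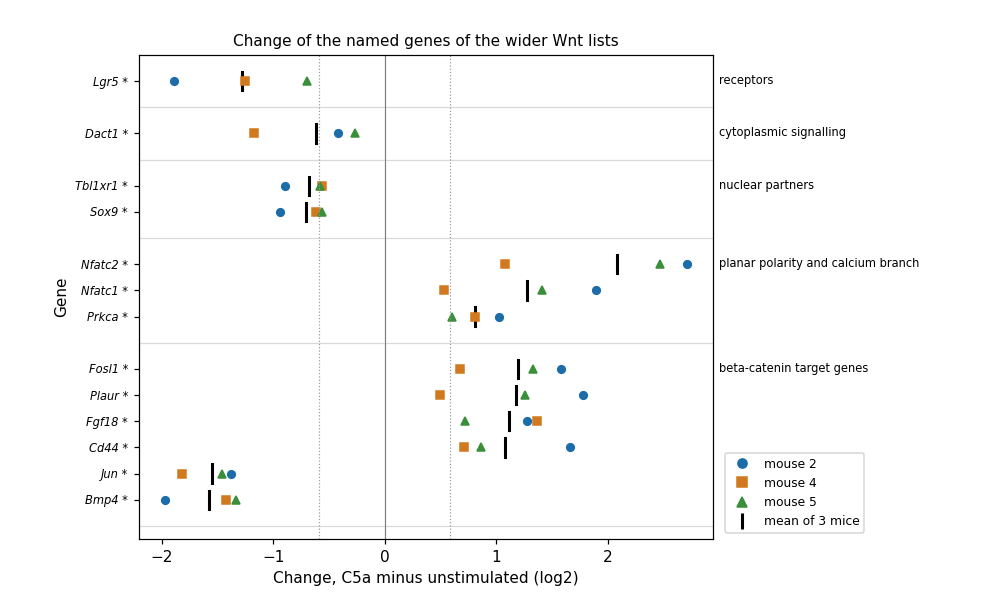
Change of the 13 named genes of the wider Wnt lists, C5a minus unstimulated in log2 units, within each mouse (circles, mouse 2; squares, mouse 4; triangles, mouse 5), with the mean as a black bar and dotted lines at a 1.5-fold change. In every mouse Nfatc2, Nfatc1, Prkca, Fosl1, Plaur, Fgf18 and Cd44 lie to the right of 0 and Lgr5, Dact1, Sox9, Tbl1xr1, Jun and Bmp4 to its left.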

How the data were processed

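Total RNA of 6 cultures was hybridised to 6 Affymetrix mouse gene arrays. The authors normalized the images by the robust multiarray average in Expression Console and BRB-ArrayTools and deposited log2 intensities per probeset. Program versions and genome build are not given in the sources used here. The number of arrays limits the precision.

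From the deposited log2 values, 35556 probesets were compared with limma 3.58.1 in R 4.3.3 (lmFit and eBayes, mouse number as a block), without filter, and p-values were adjusted by Benjamini and Hochberg. The second rule, an unadjusted p under 0.05 with a fold of at least 1.5, follows the methods, whose fold threshold, written there as an upper limit, was read as a lower one. Through the platform annotation, 21789 probesets name 1 gene, 1621 several and 12146 none. Only the first were named, with the highest mean per gene. The fit was also tested on simulated data, where mouse effects had the same spread for every probeset, unlike here. No result rests on that test.

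The numbers pair the cultures because the labels and design tie each to an animal. Deviations from the group means correlated at 0.495 to 0.684 between cultures of a mouse and at -0.446 to -0.035 between mice.

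The members and lists were chosen with earlier results of these data known. A member has its value on each array given if its unadjusted p was under 0.05, if it differed the same way in all 3 mice by at least 1.5-fold, or if it had the smallest p of its role. Axin2 and the members with wide ranges between mice were added after their values were seen. From the wider lists, up to 6 genes a list past both thresholds are named, by smallest p. Lgr6, Reck, Draxin, Rspo1, Rspo4, Vangl1, Vangl2 and Daam2 were added later. Tcf7, Tiki1, Runx2, Ephb2, Bglap, Bglap2, Spp1 and Cfd were not analysed here. Promoter windows come from RefSeq on GRCm38.p6. Alternatives were the fit without the block or with the mouse as a random block, the methods' t-test, a paired test without moderation, robust eBayes with a mean trend, tests of only the probesets at or above the 40th percentile or only those with 1 gene, arrays centred on their medians or quantile normalized, the most variable probeset per gene, and each mouse left out. Shares of genes at or above the 40th percentile were added after seeing the data.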

Additional observations from a re-analysis of the deposited data

How the results depend on the processing

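No member past the unadjusted threshold changed direction under the 13 alternatives, but 53 of 208 values no longer passed it, and Rspo2 alone passed it under all 13. The adjusted threshold was passed by 1 member with the filter at the 40th percentile (Rspo2, where 1.75% of probesets passed). With probesets naming 1 gene only, 3 members passed it (Rspo2, Fzd2 and Tcf7l2, with 3.65%). Both settings tested fewer probesets and estimated the spread on them, and what each step contributed was not tested. Without the replicate block for the mouse, 3 members were lower past both unadjusted thresholds instead of 5, Rspo3 and Tcf7l2 being lost, with 1.12% of all probesets lower, and 8 of 16 members lost the unadjusted p (Wnt2, Wnt16, Rspo3, Fzd7, Fzd8, Lrp6, Dkk2 and Tcf7l2). The methods' t-test called 1 lower, with 0.818% of all probesets, and the paired t-test without moderation called 0 higher and 2 lower, with 0.636% and 0.818%. Of the 16 members, 12 lost the unadjusted p in the former and 14 in the latter, where Rspo2 and Tcf7l2 remained. Fzd2, Ror1 and Nkd1 lost it in both, and Wnt11 and Fzd5 in the paired t-test without moderation only. Leaving out each mouse gave 1 to 2 members higher, with 1.15% to 2.84% of probesets, 3 to 6 lower, with 1.34% to 2.1%, and a median log2 difference between -0.081 and -0.028. Without mouse 2 the 3 lower members were Rspo2, Rspo3 and Fzd2, and without mouse 4 Znrf3 joined Wnt11 as higher. The other settings kept these counts within 1.5 times. With 3 mice the intervals of Axin2 and Dkk1 include 0, which does not show that these genes are unchanged.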
